A study of Mus musculus with 2 samples.

Results

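The cells described here were heart macrophages that carried transcripts of *Folr2*, *Cd163* or *Fcna* and were not cycling, 715 of the 10998 deposited barcodes, of which 491 came from the wild-type (WT) library and 224 from the *Lyve1* knockout (*Lyve1* KO) library. They were chosen by counts of unique molecular identifiers (UMIs, 1 per captured RNA molecule). A barcode was kept with at least 1000 genes, at most 10% mitochondrial UMIs, at least 10 UMIs of *C1qa*, *C1qb* and *C1qc* together per 10000 UMIs and at least 5 UMIs of *Folr2*, *Cd163* and *Fcna* together. It was left out with 5 or more *Ccr2* UMIs, 3 or more UMIs of the cycling genes *Mki67* and *Top2a*, 5 or more *Prg4* UMIs, or 3 or more UMIs of *Cd207* and *Clec4f*. *Lyve1* was not used in the choice. These cells are called chosen or gated cells below.

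The study examined how lymphatic vessels and macrophages respond to injury of the newborn mouse heart, and the single-cell experiment described here compared WT mice with mice that lacked *Lyve1* in every cell. All mice had myocardial infarction (MI) on postnatal day 2 and hearts were taken at 9 days of age, 7 days after MI. Live CD45+ cells, sorted as negative for the dead-cell dye 7AAD, were taken from a pool of 5 hearts per genotype and gave 1 10x Genomics 5′ library each, so that both groups shared the infarct, the age and the sort and neither had an uninjured control. The strain background, the exons removed in the knockout, and whether WT and *Lyve1* KO pups were littermates were not given in the sources used here. Because each genotype was a single library and the hearts of a pool were not separated here, no difference between genotypes has a replicate check and no p-value was computed. All intervals below are 95% intervals that cover counting error only.

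Tissue-resident macrophages seed the heart during embryonic life, renew themselves in place with little help from blood monocytes and clear dead cells, debris and iron. Folate receptor beta (*Folr2*), the hemoglobin-haptoglobin scavenger receptor *Cd163*, the phosphatidylserine receptor *Timd4* and the hyaluronan receptor *Lyve1* are widely used to mark them, whereas the chemokine receptor *Ccr2* marks macrophages that come from monocytes. LYVE-1 binds hyaluronan, the long sugar polymer of the cell coat and matrix, and is also found on lymphatic endothelium.

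The WT library held 67968938 UMIs in 5713 barcodes and the *Lyve1* KO library 61555917 in 5285. The chosen cells held 12302043 WT and 6358329 *Lyve1* KO UMIs, with a median of 24560 UMIs per WT cell (lowest 2182, highest 83471) and 26735 per *Lyve1* KO cell (lowest 4578, highest 79531). They were therefore of like depth in both libraries, with medians of 5111 and 5159 genes. Of the barcodes, 9 sequences occurred in both libraries and none was a chosen cell in both. Cells with *Xist* (female) and cells with Y-linked transcripts (male) were present in both pools. Female cells made up 26.3% of the WT cells (129 of 491) and 43.3% of the *Lyve1* KO cells (97 of 224), and male cells 66.6% and 52.2%. The shares, the counts of genes past 2-fold and the ratios of the named genes between genotypes were therefore also computed within each sex.

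The chosen cells were a smaller share of the *Lyve1* KO library. They made up 14.5% (13.4 to 15.8%) of the 3380 WT barcodes within the quality limits and 8.09% (7.10 to 9.17%) of the 2769 *Lyve1* KO barcodes. The *Lyve1* KO share minus the WT share was -6.44 percentage points (-8.00 to -4.86), with -3.32 in female and -8.90 in male cells. Among C1q-positive cells alone the shares were 34.8% (32.4 to 37.4%) of 1409 and 36.8% (33.0 to 40.8%) of 608, a difference of 1.99 points whose interval ran from -2.52 to 6.60. The C1q-positive class as a whole, which takes in nearly all mature macrophages, was 41.7% of WT and 22.0% of *Lyve1* KO quality barcodes (difference -19.7 points, -22.0 to -17.4). The lower share thus went with a lower share of C1q-positive cells in general, and within that class the interval of the difference took in 0. With 1 pool each, loss of these cells and a larger number of other CD45+ cells cannot be told apart.

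The exclusion steps differed between the libraries in the *Prg4* and the *Cd207* and *Clec4f* limits. Of 717 WT and 335 *Lyve1* KO C1q-positive cells with at least 5 receptor UMIs, 24.8% and 26.9% were left out as cycling and 5.16% and 4.18% for *Ccr2*. The *Prg4* limit, meant for macrophages of the body cavities, applied to 2.23% of WT and to 7.76% of *Lyve1* KO cells, or 5.53 points more (2.76 to 9.00). The *Cd207* and *Clec4f* limit applied to 2.93% and 0.896%, or -2.03 points (-3.65 to -0.055).

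Levels are given as UMIs per 1000000 UMIs (CPM) summed over the cells of a library. The genes used for the choice are given as a description and were not tested. *Folr2* stood at 842 CPM (826 to 858) in WT and 963 CPM (939 to 988) in *Lyve1* KO cells, and 98.8% and 98.2% of the cells held a UMI of it. *Cd163* stood at 321 and 344 CPM. *Fcna*, which encodes ficolin-A, a lectin that starts the complement cascade, stood at 609 CPM (595 to 623) and 986 CPM (962 to 1011). *Folr2* was thus found in nearly all the cells, whereas *Cd163* was found in 67.2% and 70.1% and *Fcna* in 77.8% and 77.2%. The receptor sum had a median of 25 UMIs per WT cell (5 to 337) and 31 per *Lyve1* KO cell (5 to 456). The C1q chains lay between 4443 and 4941 CPM in both libraries, and *Ccr2* at 2.60 and 1.73 CPM.

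The label of resident macrophages was checked against genes that the choice did not use, with C1q-positive cells of the same libraries that held under 5 receptor UMIs and passed every other limit as the comparison (405 WT and 127 *Lyve1* KO cells, below called *Folr2*-low cells). Since both groups were cut from the same cells by measured values, this is a description and no test. The receptor limit counts UMIs whatever the depth of a cell, and *Folr2*-low cells were shallower than the chosen cells. Their median was 12852 UMIs in WT and 19296 in *Lyve1* KO, against 24560 and 26735 in the chosen cells. Their median number of genes was 3728 and 4420, against 5111 and 5159. *Cbr2*, a carbonyl reductase, stood at 1334 CPM (1313 to 1354) in WT and 1434 CPM (1405 to 1464) in *Lyve1* KO chosen cells against 140 and 175 CPM in *Folr2*-low cells. *Ednrb*, the endothelin receptor B, stood at 489 CPM (477 to 501) and 692 CPM (671 to 712) against 44.0 and 47.9 CPM. Both marker genes were high in the chosen cells of each library and were held by most of them, *Cbr2* by 94.7% and 96.4% and *Ednrb* by 83.1% and 86.2%. *Timd4* stood at 125 and 183 CPM against 10.1 and 17.7 CPM, and at 0 and 23.4 CPM in lymphocytes, where 1 *Lyve1* KO cell of 935 held all its UMIs. The chemokine gene *Ccl8* stood at 91.3 CPM (86.0 to 96.8) and 151 CPM (142 to 161) against 17.2 and 2.01 CPM, but only 16.5% of WT and 24.1% of *Lyve1* KO cells held a UMI of it. *Ccl8* was thus the one label marker carried by a minority of the cells. All 15 macrophage lineage genes, among them *Csf1r*, the receptor for the macrophage growth factor CSF1 (1653 and 1663 CPM), *Lyz2* (6386 and 7975 CPM) and *Tyrobp* (2322 and 2258 CPM), were measured in the chosen cells.

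**Figure D1:**
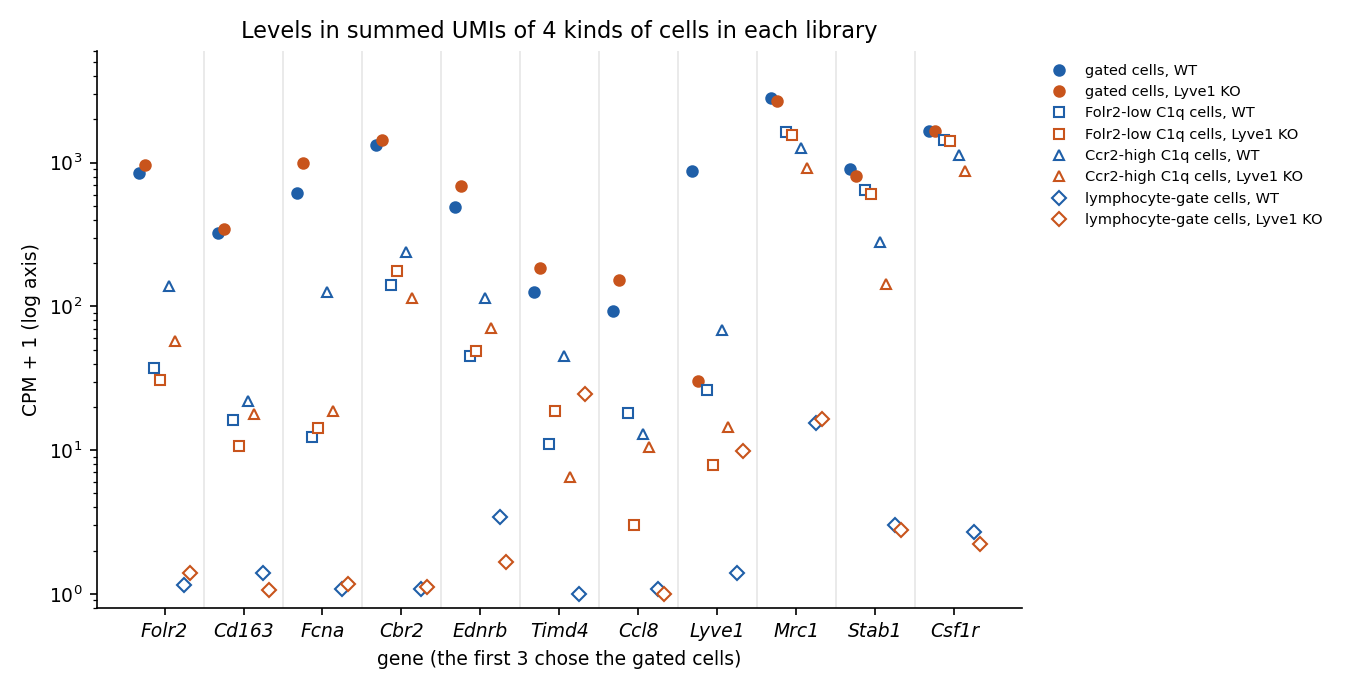
Level of 11 genes in CPM plus 1 (log axis) in the chosen cells, *Folr2*-low C1q-positive cells, *Ccr2*-high C1q-positive cells (5 or more *Ccr2* UMIs) and lymphocytes, with WT in blue and *Lyve1* KO in orange. *Cbr2*, *Ednrb* and *Timd4*, which the choice did not use, are higher in the chosen cells than in the other classes in both libraries, and *Lyve1* is highest in WT chosen cells.

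Values near the edge of the choice were as follows. WT cells with 5 or 6 receptor UMIs (62 cells) held *Cbr2* at 688 CPM, *Ednrb* at 138 CPM and *Lyve1* at 57.9 CPM, and WT cells just outside, with 3 or 4 (54 cells), held them at 383, 132 and 73.6 CPM. In the *Lyve1* KO library 16 cells just inside held *Cbr2* at 267 CPM and *Ednrb* at 164 CPM, and 20 cells just outside held them at 430 and 159 CPM. *Ednrb* was thus at like levels on either side of the limit, whereas *Cbr2* was higher inside it in WT and outside it in *Lyve1* KO.

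*Lyve1* itself, on the minus strand of chromosome 7 (mm10, chr7:110850607-110863239), is the gene the study deleted. WT cells held 10829 *Lyve1* UMIs, or 880 CPM (864 to 897), and *Lyve1* KO cells held 186, or 29.3 CPM (25.2 to 33.8), a 30.1-fold lower level (26.0 to 35.0). On the scale used below, the log2 ratio of CPM plus 10, the change was -4.50 over all cells, -4.90 in female and -4.24 in male cells. The WT level was 35.0-fold (29.6 to 41.6) above the 25.2 CPM of *Folr2*-low WT cells. The libraries thus matched their labels. The 5′ UMIs that remained could not be placed against the deleted exons. Lymphocytes of the same libraries (cells with at least 5 UMIs of B or T cell receptor-complex genes), a cell type not known for *Lyve1*, held it at 0.406 CPM in WT and at 8.91 CPM in *Lyve1* KO.

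WT cells did not carry *Lyve1* evenly. Per WT cell the median was 5 UMIs, the upper quartile 30.5, 10% of the cells held 64 or more and the highest cell held 279. The highest *Lyve1* KO cell held 8, and the median was 0. So that depth did not set the share of positive cells, each cell was thinned to 5800 UMIs, which left out 14 WT and 2 *Lyve1* KO cells. A *Lyve1* UMI was then found in 270 of 477 WT cells (56.6%, 52.0 to 61.1%) and 31 of 222 *Lyve1* KO cells (14.0%, 9.69 to 19.2%). Without thinning the shares were 67.6% and 37.5%. In thinned lymphocytes the shares were 0.170% of 587 WT and 4.86% (3.54 to 6.49%) of 885 *Lyve1* KO cells. WT chosen cells were therefore far above WT lymphocytes. The lymphocyte share was itself higher in *Lyve1* KO than in WT, so that it is no plain background for the *Lyve1* KO cells. *Lyve1* KO chosen cells lay above the lymphocytes of their own library, but with few molecules each, since 25 of the 31 positive cells held 1 UMI and the others 2 to 4. At least 10 UMIs were seen in 98 WT cells (20.5%) and in 0 of 222 *Lyve1* KO cells.

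**Figure D2:**
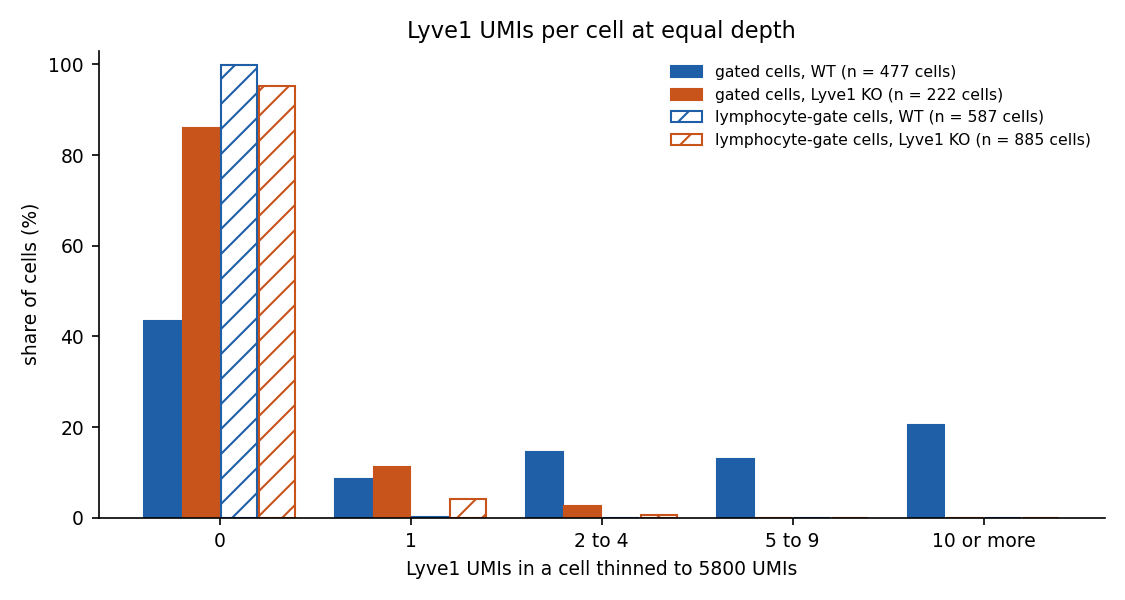
Share of cells (%, y axis) by number of *Lyve1* UMIs (x axis) after thinning every cell to 5800 UMIs, for chosen cells and lymphocytes of the WT and *Lyve1* KO libraries. WT chosen cells spread over every class, with 43.4% at 0 and 20.5% at 10 or more, whereas 86.0% of *Lyve1* KO chosen cells held none.

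Since LYVE-1 is also a marker of lymphatic endothelium, the other genes of that cell type were read in the same cells. The 9 listed lymphatic endothelial markers summed to 894 CPM in WT and 39.2 CPM in *Lyve1* KO cells, of which *Lyve1* was the most abundant. *Prox1*, the transcription factor that defines lymphatic endothelium, stood at 10.6 and 8.65 CPM, *Flt4*, which encodes VEGFR3, at 0.0813 and 0 CPM, and *Mmrn1* and *Tbx1* at 0 in both. *Lyve1* in the WT cells was thus not accompanied by the other lymphatic genes at a like level.

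Within the WT cells, the genes most like *Lyve1* included *Folr2* and *Fcna*, used in the choice, and the label markers *Ednrb* and *Cbr2*. Over 491 WT cells and 9506 genes with a UMI in at least 10% of them, the Pearson correlation of log-normalized values with *Lyve1* was highest for *Fcna* (0.64), *Folr2* (0.60), *Ednrb* (0.59), *Cbr2* (0.50) and the scavenger receptor *Colec12* (0.47). The lowest were *Cd52* (-0.51), *Mpeg1* (-0.47), the chemokine *Cxcl16* (-0.46), *H2-DMa* (-0.39) and *Lpcat2* (-0.38). The correlation of *Lyve1* with the log of cell depth was 0.05. These values describe cells of 1 library that were chosen in part by *Folr2* and *Fcna*, and carry no test.

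The promoters of the 4 genes most like *Lyve1* are shown because these genes varied together from cell to cell. Each line gives the 250 bases upstream of a RefSeq transcription start (GRCm38.p6, all on the minus strand, 5′ to 3′), and capitals mark GAGGAA, the core bound by the macrophage factor PU.1, and TGCTGA, the core bound by MAF factors, searched on both strands. The windows are chr2:25627975-25628224 for *Fcna*, chr7:101845332-101845581 for *Folr2* (the start shared by 3 annotated transcripts), chr14:103843702-103843951 for *Ednrb* and chr11:120732022-120732271 for *Cbr2*.
Fcna: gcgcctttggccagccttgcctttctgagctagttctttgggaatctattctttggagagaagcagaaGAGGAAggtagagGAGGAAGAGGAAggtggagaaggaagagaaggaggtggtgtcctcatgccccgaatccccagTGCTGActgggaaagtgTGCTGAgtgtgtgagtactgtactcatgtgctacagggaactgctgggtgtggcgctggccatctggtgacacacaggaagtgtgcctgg
Folr2: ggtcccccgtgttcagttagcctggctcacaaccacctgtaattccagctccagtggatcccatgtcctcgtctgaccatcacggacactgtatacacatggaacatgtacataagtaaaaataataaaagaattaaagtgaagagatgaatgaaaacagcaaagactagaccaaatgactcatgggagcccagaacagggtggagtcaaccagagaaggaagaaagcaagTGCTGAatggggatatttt
Ednrb: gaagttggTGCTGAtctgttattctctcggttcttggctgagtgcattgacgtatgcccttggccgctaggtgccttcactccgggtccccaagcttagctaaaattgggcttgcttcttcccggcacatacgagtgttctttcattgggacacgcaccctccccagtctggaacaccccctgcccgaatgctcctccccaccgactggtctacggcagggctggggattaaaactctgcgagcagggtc
Cbr2: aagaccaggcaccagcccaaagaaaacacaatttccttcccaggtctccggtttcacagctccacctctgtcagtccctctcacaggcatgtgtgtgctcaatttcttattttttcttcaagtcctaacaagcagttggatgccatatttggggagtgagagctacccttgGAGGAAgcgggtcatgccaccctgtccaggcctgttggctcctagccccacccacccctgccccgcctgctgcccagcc
The *Fcna* window held 3 matches to GAGGAA and 2 to TGCTGA, the *Folr2* and *Ednrb* windows 1 TGCTGA each and the *Cbr2* window 1 GAGGAA. Among 32851 windows of the same length upstream of RefSeq starts, 23.3% held GAGGAA, 16.1% held TGCTGA and 3.68% held both. A match is a run of letters and does not show binding.

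Levels were read along the receptor sum, which the choice itself used, so they are a description and no test. The chosen cells were divided by *Folr2*, *Cd163* and *Fcna* UMIs per 10000 UMIs into 5 bands. The bands were under 5, 5 to 10, 10 to 20, 20 to 40, and 40 or more, with 104, 112, 128, 105 and 42 WT cells. WT *Lyve1* stood in them at 71.5, 204, 939, 1360 and 2859 CPM. In the same bands of the *Lyve1* KO library it stood at 16.8, 21.2, 20.8, 48.1 and 31.1 CPM. From the lowest to the highest band, *Ednrb* went from 105 to 1154 CPM in WT and from 158 to 1361 CPM in *Lyve1* KO, *Cbr2* from 604 to 2556 and from 532 to 2324 CPM, and *Timd4* from 44.5 to 315 and from 34.6 to 363 CPM. *Ednrb*, *Cbr2* and *Timd4* were therefore higher in the highest than in the lowest band in both libraries, as *Lyve1* was in WT. Levels of bands cannot tell a gradual change from a changing mix of distinct kinds of cells. *Cd52*, a small surface glycoprotein, ran the other way, from 516 to 77.4 CPM in WT and from 559 to 91.6 CPM in *Lyve1* KO. So did *Cxcl16* (314 to 40.7 and 339 to 49.3 CPM) and *Tmem119*, best known from microglia (52.3 to 2.44 and 64.7 to 1.73 CPM). The hyaluronan and scavenger receptor *Stab1* stood at 919 and 853 CPM in the end bands in WT and at 609 and 722 CPM in *Lyve1* KO, where the middle band was highest at 1028 CPM.

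**Figure D3:**
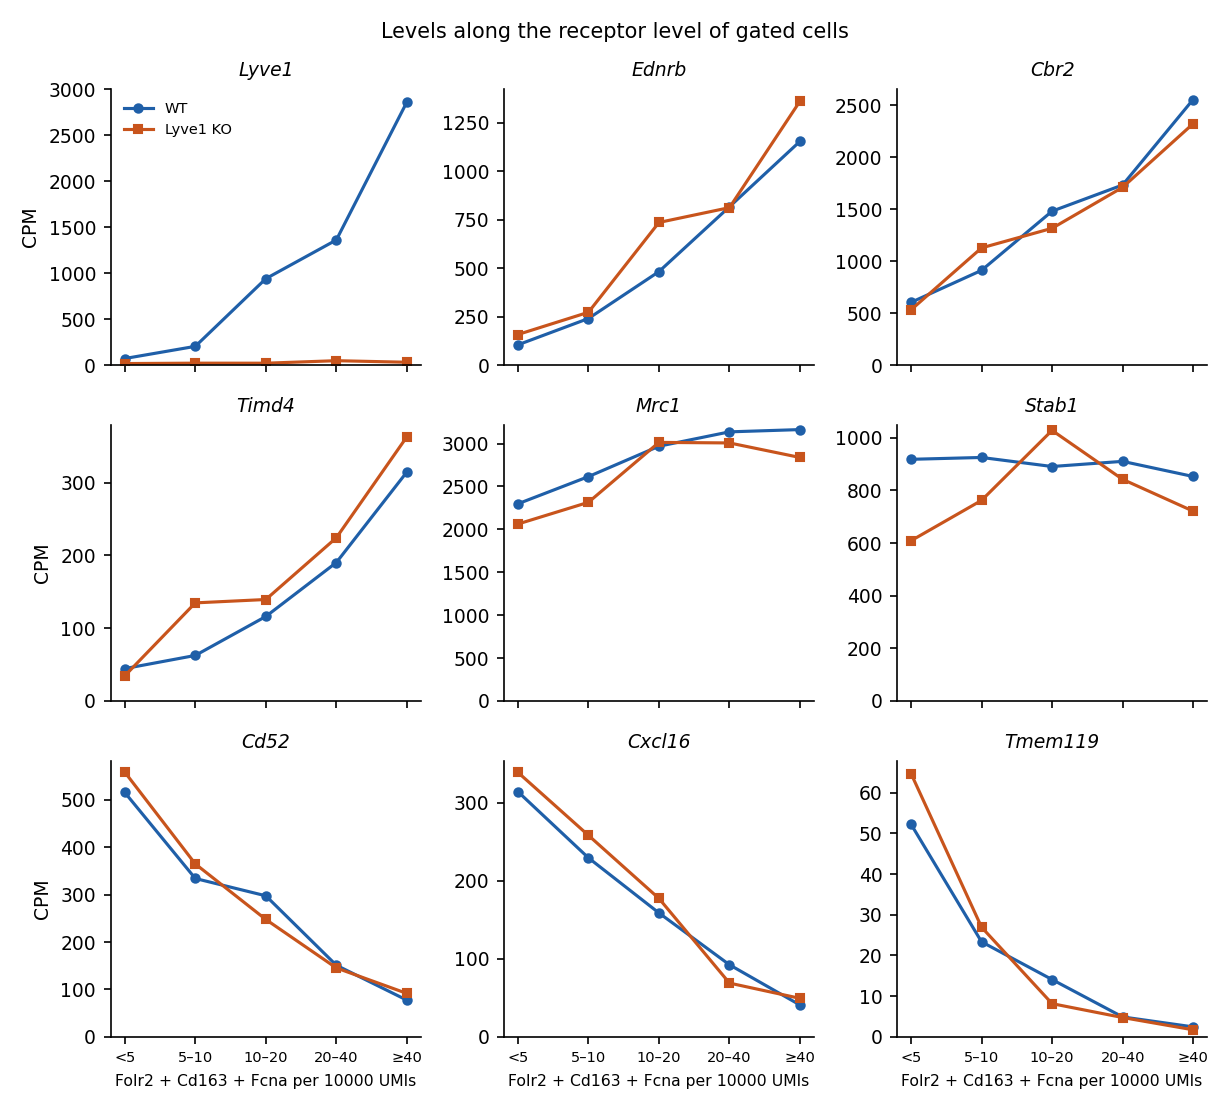
Level in CPM (y axis) of 9 genes in 5 bands of chosen cells ordered by *Folr2*, *Cd163* and *Fcna* UMIs per 10000 UMIs (x axis), with WT in blue and *Lyve1* KO in orange. *Ednrb*, *Cbr2* and *Timd4* climb and *Cd52*, *Cxcl16* and *Tmem119* decline along the bands in both libraries, whereas *Lyve1* climbs to 2859 CPM in WT and stays at or under 48.1 CPM in *Lyve1* KO.

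*Timd4*, which binds phosphatidylserine on dying cells, was carried by part of the cells. After thinning, 34.2% of WT and 40.1% of *Lyve1* KO cells held a UMI of it. WT cells with *Timd4* held *Lyve1* in 70.6% of cases (115 of 163, 62.9 to 77.4%) and WT cells without it in 49.4% (155 of 314, 43.7 to 55.0%). *Fcna* was found in 69.3% and 50.3% of the same WT cells, and in 86.5% (77.6 to 92.8%) and 48.9% (40.1 to 57.7%) of *Lyve1* KO cells with and without *Timd4*. *Fcna* is one of the genes of the choice, so its shares are a description.

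Across all genes, 10167 could be compared between chosen and *Folr2*-low cells (at least 100 UMIs). Of these, 68 (0.669%) were at least 2-fold higher in the chosen cells of both libraries, 82 (0.807%) at least 2-fold lower and 150 (1.48%) either, on the log2 ratio of CPM plus 10. The 15 highest outside the genes of the choice were *Retnla*, *Ednrb*, *Cbr2*, *Cd209f*, *C4b*, *Timd4*, *Wfdc17*, *Marco*, *Clec10a*, *Cd38*, *Ccl7*, *Ccl8*, *Fgfr1*, *Pltp* and *Bmp2*. The C-type lectin *Clec10a* stood at 233 and 263 CPM in WT and *Lyve1* KO chosen cells against 37.2 and 25.3 CPM in *Folr2*-low cells. The phospholipid transfer protein gene *Pltp* stood at 711 and 907 CPM against 185 and 216 CPM. *Bmp2*, a secreted factor of the TGF-beta family, stood at 209 and 258 CPM against 49.6 and 62.8 CPM, a log2 ratio of 1.88 in each library. *Clec10a*, *Pltp* and *Bmp2* were each held by 62.7% or more of the chosen cells of either library, whereas *Fgfr1* was held by 26.5% and 40.6%, and *Cd209f*, *Marco* and *Retnla* came from few cells. *Cd209f* was found in 22 WT and 24 *Lyve1* KO chosen cells and in 0 *Folr2*-low UMIs, so that its level was at least 125-fold higher in WT and at least 85.4-fold higher in *Lyve1* KO (against 3 counts per library). *Marco* was found in 23 cells of each library. *Retnla* was not particular to the chosen cells. *Ccr2*-high C1q-positive cells held it at 1338 CPM in WT and 3295 CPM in *Lyve1* KO, above its level in the chosen cells of the same library. *C4b* (29.6 and 19.9 CPM) and *Wfdc17* (486 and 287 CPM) were lower in *Ccr2*-high cells than in the chosen cells.

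The genes lower in the chosen cells had other known roles. *Rgs1*, a regulator of chemokine receptor signalling, stood at 64.7 and 54.4 CPM against 329 and 277 CPM in *Folr2*-low cells. The membrane protease *Mmp14* stood at 16.3 and 15.7 CPM against 106 and 166 CPM, and *Il1rn*, the interleukin-1 receptor antagonist, at 16.6 and 20.6 CPM against 98.4 and 214 CPM. *Spp1*, which encodes osteopontin, stood at 55.8 and 69.0 CPM against 256 and 2301 CPM, so that its gap was much wider in the *Lyve1* KO library (log2 -4.87) than in WT (-2.01). *Cd9* stood at 111 and 84.6 CPM against 352 and 601 CPM. *F11r*, *Cd72*, *Plbd1*, *Cytip* and the noncoding *AU020206* completed the 10 lowest, with log2 ratios between -1.59 and -2.07 over both libraries.

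Of the listed resident macrophage genes, 14 of 26 were past 2-fold higher and 0 lower (median log2 1.29 in WT and 1.27 in *Lyve1* KO, against -0.04 in each over all genes compared, of which 0.669% were higher and 0.807% lower in both libraries). The same shares over all genes stand behind the list counts that follow. The higher members included *Lyve1*, *Timd4*, *F13a1*, *Gas6*, *Ltc4s*, *Clec10a*, *Mgl2*, *Cd209f*, *Vsig4*, *Fxyd2*, *Fgfr1*, *Tslp* and *Bmp2*. *F13a1*, the A subunit of coagulation factor XIII, stood at 2468 and 2660 CPM against 519 and 778 CPM. *Selenop*, *Pf4* and *Mrc1* were the most abundant members, and *Mrc1*, the mannose receptor, stood at 2804 and 2697 CPM against 1628 and 1550 CPM, under 2-fold. This list was written with earlier results of these data known and is not independent evidence.

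Of 8 MHC class II genes, 4 (*Cd74*, *H2-Aa*, *H2-Ab1* and *H2-Eb1*) were past 2-fold lower in the chosen cells and 0 higher. *Cd74*, the invariant chain, stood at 213 and 189 CPM against 1023 and 581 CPM, and *H2-Aa* at 9.92 and 3.46 CPM against 181 and 32.6 CPM. *H2-Ab1* and *H2-Eb1* were both under 6 CPM in the chosen cells. These classical class II chains were thus close to undetected in most chosen cells of each library, while *Ctss*, the protease that processes the invariant chain, remained at 1194 and 1128 CPM.

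Chemokine genes divided by gene. Of 19, 5 were past 2-fold higher in the chosen cells (*Ccl2*, *Ccl6*, *Ccl7*, *Ccl8* and *Ccl24*) and 2 lower. *Ccl2* and *Ccl7*, both ligands of CCR2, stood at 1106 and 960 CPM and at 906 and 974 CPM, against 355 and 326 CPM and 220 and 254 CPM in *Folr2*-low cells. *Cxcl2*, which draws neutrophils, was the most abundant chemokine besides *Pf4*, at 2705 and 3057 CPM. The lower members were *Cxcl16*, at 181 and 167 CPM against 416 and 392 CPM, and *Ccl5*, at 17.3 and 1.73 CPM against 108 and 18.1 CPM.

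Among complement genes 4 of 15 were past 2-fold higher and 0 lower, where 0.669% of all genes were higher. *C4b*, complement component 4, stood at 91.6 CPM (86.3 to 97.1) and 197 CPM (186 to 208) against 4.96 and 9.65 CPM, and its close copy *C4a* held 3 UMIs in each library. Of 19 efferocytosis genes, *Gas6*, the ligand that bridges dying cells to TAM receptors (604 and 500 CPM against 210 and 165 CPM), and *Timd4* were higher, and the TAM receptor *Axl* was lower, at 51.5 and 39.5 CPM against 134 and 148 CPM. Among lysosome and lipid genes 0 of 33 were higher and 4 lower (*Gpnmb*, *Spp1*, *Fabp5* and *Cd9*). *Mertk*, another TAM receptor, did not pass 2-fold, at 152 and 146 CPM against 173 and 184 CPM.

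Growth and angiogenic factors were split, against 0.669% higher and 0.807% lower over all genes, with 5 of 31 higher (*Hbegf*, *Bmp2*, *Gas6*, *Mmp9* and *Timp2*) and 3 lower (*Vegfa*, *Fgf13* and *Mmp14*). *Igf1*, insulin-like growth factor 1, stood at 581 and 603 CPM and *Grn*, progranulin, at 1730 and 1699 CPM in the chosen cells. Of 21 heme and iron genes, ceruloplasmin (*Cp*) was the one past 2-fold, higher at 70.2 and 98.1 CPM. Scavenger and lectin receptors counted 7 higher and 1 lower (*Lgals3*, 259 and 221 CPM against 539 and 1224 CPM). Transcription factors counted 0 higher and 2 lower (*Id1* and *Runx3*) of 40, and *Maf*, *Klf2* and *Atf3* were the most abundant, each at 898 CPM or more. Among interferon-stimulated genes *Ifitm3* was the one past 2-fold, higher, at 930 and 1305 CPM. Of 13 microglia-type genes *Tmem119* was the one past 2-fold, lower, at 21.2 and 19.2 CPM against 81.0 and 86.9 CPM.

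Between genotypes, few genes of the chosen cells were past 2-fold with 10 CPM added, and smaller differences are not counted by this limit. Of 9428 genes with at least 100 UMIs, 15 (0.159%) were at least 2-fold higher in *Lyve1* KO, 19 (0.202%) at least 2-fold lower and 34 (0.361%) either, with a median log2 ratio of -0.05. The hallmark genes of the cells were among those under 2-fold. *Ednrb* had a log2 ratio of 0.49, *Timd4* of 0.52, *Ccl8* of 0.67, *Cbr2* of 0.10 and *Mrc1* of -0.06. Of 26 resident macrophage genes 0 were past 2-fold higher and 1, *Lyve1*, lower, and the median of the list was 0.10. The 15 macrophage lineage genes had a median of -0.11 with 0 past 2-fold, and *Csf1r* a log2 ratio of 0.01. Within 0.5 of 0 lay 20 of the 26 resident macrophage genes, of which *Fgfr1* was highest at 0.70, and 14 of the 15 lineage genes. *Fcna*, used in the choice, had a log2 ratio of 0.69.

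**Figure D4:**
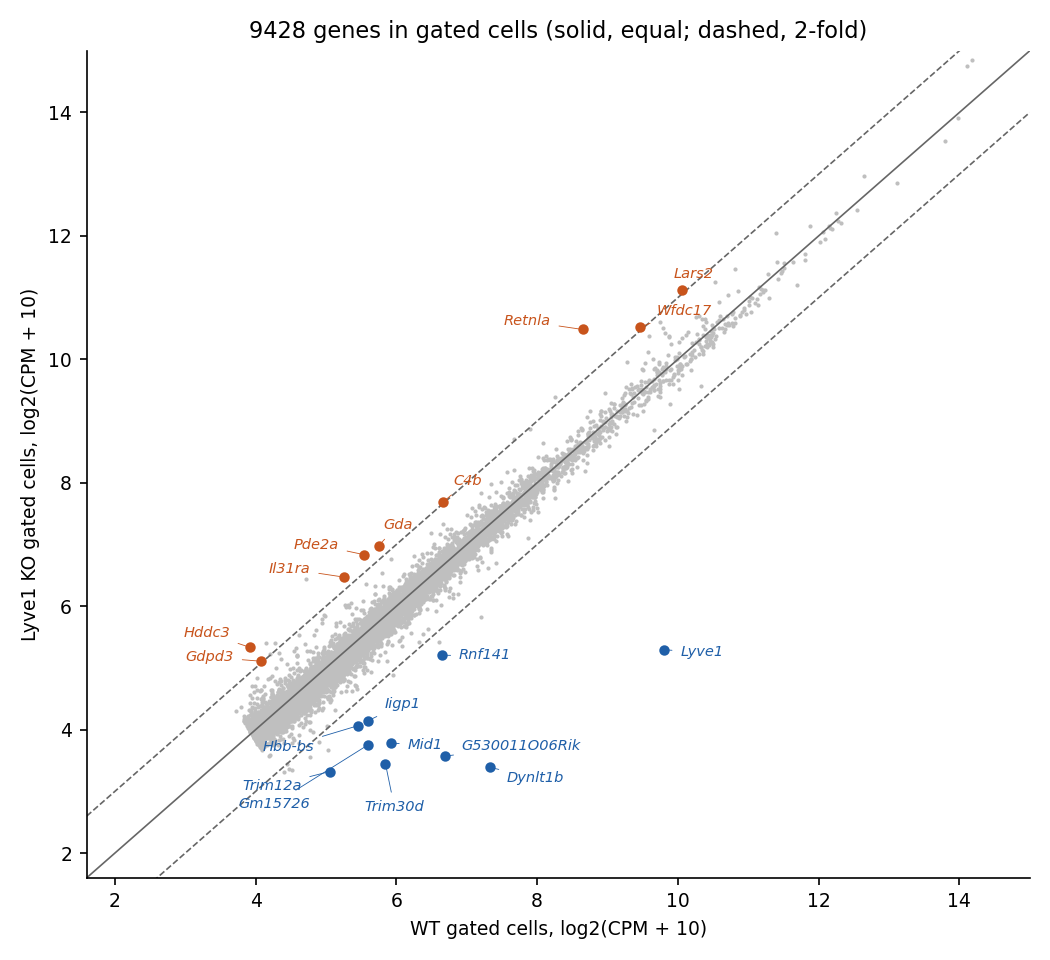
Level of 9428 genes in WT (x axis) and *Lyve1* KO (y axis) chosen cells as log2 of CPM plus 10, with dashed lines at 2-fold and 19 named genes labelled. Most genes lie along the diagonal, and *Lyve1*, *Dynlt1b* and *G530011O06Rik* lie farthest below it.

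The other hyaluronan genes did not pass 2-fold. Of 10 tested, *Lyve1* alone was past it, and 9 lay within 0.5 of 0 on the log2 scale. *Cd44*, the main hyaluronan receptor of leukocytes, stood at 346 CPM in WT and 417 CPM in *Lyve1* KO cells (log2 0.26). *Stab1* stood at 905 and 805 CPM (log2 -0.17) and *Hexa*, a lysosomal enzyme that trims hyaluronan fragments, at 584 and 577 CPM. With 0.159% of all genes past 2-fold higher, a list of this size is near the overall share with 0. The synthase *Has2* and the hyaluronidase genes *Cemip* and *Spam1* held 0 UMIs in both libraries.

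The other lists were also near the median of all genes, and with 0.361% of all genes past 2-fold a count of 0 is near the overall share in lists of these sizes. Among 33 core apoptosis genes 0 were past 2-fold, all lay within 0.5 of 0, and the median was -0.08. The most abundant of them, the survival gene *Mcl1*, stood at 673 and 749 CPM. The paper reports a higher per-cell score of another apoptosis gene set in CCR2-negative macrophages of the *Lyve1* KO. It also reports more macrophages stained for an apoptosis marker in *Lyve1* KO hearts. A 2-fold count over the list used here does not measure such a score, which was not computed. Counts of 0 in either direction were found for 22 scavenger and lectin receptors, 19 efferocytosis genes, 20 heme and iron genes, 28 growth and angiogenic factors, 38 transcription factors, 24 interferon-stimulated genes, 28 immediate early genes, 12 microglia-type genes, 31 lysosome and lipid genes and 5 MHC class II genes. *Trf* (1347 and 1548 CPM), *Ly6e* (837 and 878 CPM), *Junb* (2914 and 3002 CPM), *Cst3* (3158 and 3047 CPM) and *Ctsb* (4259 and 4258 CPM) were abundant examples. Of 17 chemokines 1 was past 2-fold, *Ccl5*, at 213 WT and 11 *Lyve1* KO UMIs, but these came from 12 and 4 cells. *Ccl6* had the highest chemokine ratio, at 852 and 1554 CPM (log2 0.86). Of 12 complement genes 1, *C4b*, was past 2-fold higher and 0 lower.

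*Retnla*, which encodes the secreted protein RELM-alpha, stood at 391 CPM (380 to 403) in WT and 1422 CPM (1393 to 1452) in *Lyve1* KO (log2 1.84, with 3.15 in female and 1.16 in male cells). Only 34 WT and 31 *Lyve1* KO cells held any UMI of it, and those with at least 10 numbered 18 (3.67%, 2.19 to 5.73%) and 17 (7.59%, 4.48 to 11.9%) and held 99.1% and 99.6% of its UMIs. The *Retnla* difference thus rested on 35 cells. In the cells with at least 10 *Retnla* UMIs, *Timd4* stood at 332 CPM in WT and 330 CPM in *Lyve1* KO against 115 and 166 CPM in the remaining cells. *Lyve1* stood at 1964 CPM in the WT *Retnla* cells against 829 CPM in the rest. *Retnla* cells were thus within the *Lyve1*-high and *Timd4*-high range in WT.

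*Wfdc17*, a small secreted protein, stood at 693 CPM (678 to 708) in WT and 1459 CPM in *Lyve1* KO (log2 1.06), *C4b* at 91.6 and 197 CPM (log2 1.03) and *Gda*, guanine deaminase, at 43.8 and 116 CPM (log2 1.23). Cells with a single *Prg4* UMI, 2 in WT and 7 in *Lyve1* KO, held 26.4% of the *Lyve1* KO UMIs of *Wfdc17*, 29.7% of *C4b* and 28.8% of *Gda*. Without them these 3 genes had log2 ratios of 0.71, 0.62 and 0.88, all under 2-fold, while *Retnla* had 1.89. The part of *Prg4*-high macrophages in these differences was not tested otherwise.

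Other genes with high ratios were carried by many cells. *Hddc3*, a nucleotide hydrolase, was found in 51 of 491 WT and 112 of 224 *Lyve1* KO cells, at 5.12 CPM (3.94 to 6.55) and 30.4 CPM (26.2 to 35.0, log2 1.42). *Pde2a*, a phosphodiesterase, stood at 36.7 and 104 CPM (log2 1.29) and was found in 36.0% and 66.5% of cells. *Gdpd3*, a phosphodiester hydrolase, stood at 6.83 and 24.5 CPM (log2 1.04) in 13.4% and 39.7% of cells. These 3 genes all lie on chromosome 7. *Il31ra*, a cytokine receptor subunit, stood at 28.1 and 78.8 CPM (log2 1.22), and in *Folr2*-low cells at 64.5 and 187 CPM. *Lars2*, the mitochondrial leucyl-tRNA synthetase, was found in nearly all cells at 1060 and 2221 CPM (log2 1.06), although the 10% of cells with the most held 59.5% of its WT and 66.3% of its *Lyve1* KO UMIs. By the mean of per-cell CPM, *Lars2* had a log2 ratio of 0.81 and *Il31ra* of 0.98, and *Gdpd3* had 0.84 in male cells, all under 2-fold.

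Of the 10 genes with the lowest ratios, several were near absent from the *Lyve1* KO cells. *Dynlt1b*, a dynein light chain, held 1864 WT and 3 *Lyve1* KO UMIs, a 321-fold lower level (110 to 1559), and was found in 442 of 491 WT cells. Its close copies *Dynlt1a*, *Dynlt1c* and *Dynlt1f*, named here after their values were seen, stood at 58.4 and 50.3, 20.6 and 19.7, and 16.1 and 14.5 CPM. The difference past 2-fold was thus seen in 1 of 4 near-identical genes, between which counting can be uncertain. *Trim12a* held 285 and 0 UMIs, at least 49.1-fold lower in *Lyve1* KO (against 3 counts), and *Trim30d* held 584 and 6. Both belong to families of antiviral TRIM proteins, and their neighbours *Trim12c* (29.3 and 35.7 CPM) and *Trim30a* (121 and 120 CPM), also chosen after their values were seen, were close to level. *Trim30b*, named likewise, held 31 and 7 UMIs, and stood at 11.8 and 2.19 CPM in lymphocytes. *Rnf141*, a ring finger gene that ends 6.15 kb from *Lyve1* (chr7:110800432-110844457), stood at 90.6 CPM (85.4 to 96.1) in WT and 26.9 CPM (23.0 to 31.2) in *Lyve1* KO (log2 -1.45).

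Chromosome 7 was thus frequent among the genes past 2-fold. It held 685 of the 9428 genes tested (7.27%), 10 of the 34 past 2-fold and 8 of the 20 with the highest and lowest ratios, *Lyve1* included. From the *Lyve1* gene, *Trim30d* was 6.34 Mb away, *Trim12a* 6.54 Mb, *Hbb-bs* 7.02 Mb, *Pde2a* 9.34 Mb, *Gdpd3* 15.9 Mb and *Hddc3* 30.5 Mb. These distances run to the nearest gene ends in GENCODE on mm10. The X chromosome held 3 of the 20, *Mid1*, which encodes a microtubule-bound ubiquitin ligase (50.6 and 3.77 CPM), the noncoding *G530011O06Rik* (93.5 and 1.89 CPM) and *Gm15726* (38.3 and 3.46 CPM). *Gm15726* is annotated as antisense inside *Mid1*, and *G530011O06Rik* (chrX:169975043-169978917) also lies within the *Mid1* interval (chrX:169685199-170005736), so that the 3 are 1 locus. Their log2 ratios were -2.05, -2.98 and -1.90 in female cells and -2.17, -3.13 and -1.81 in male cells.

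The interferon-induced GTPase *Iigp1* stood at 38.4 and 7.71 CPM (log2 -1.45), but its ratio was -2.23 in female and -0.67 in male cells. *Hbb-bs*, the adult beta-globin gene, stood at 34.1 and 6.76 CPM in the chosen cells and at 43.0 and 7.85 CPM in lymphocytes, and the 8 measured erythroid markers summed to 45.0 and 8.65 CPM in chosen cells and 57.4 and 10.6 CPM in lymphocytes, with *Hbb-bs* the most abundant. The *Hbb-bs* log2 ratio of the chosen cells was -1.39, with -0.47 in female cells, under 2-fold, and -1.75 in male cells, and it was -1.57 in lymphocytes. *Alas2* and *Slc4a1* were at 0 in the chosen cells.

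The ratios of these genes in other cells of the same 2 libraries are given side by side with those in the chosen cells. In *Folr2*-low cells, the class most like the chosen cells, *Dynlt1b* had a log2 ratio of -3.64, *G530011O06Rik* of -3.25, *Hbb-bs* of -2.89, *Trim12a* of -2.02, *Mid1* of -1.91, *Trim30d* of -1.89, *Rnf141* of -1.28 and *Gm15726* of -1.25. *Gdpd3* had 1.73 there, *Il31ra* 1.40, *Hddc3* 1.03, *Pde2a* 0.84, *Wfdc17* 0.55, *Lars2* 0.43, *C4b* 0.39 and *Gda* 0.18, whereas *Iigp1* had 0.77 and *Retnla* -1.30 with 0 *Lyve1* KO UMIs. Most of these genes thus differed in the same direction in the *Folr2*-low cells, and their differences cannot be called particular to the chosen cells. In *Ccr2*-high C1q-positive cells, *Dynlt1b* had -3.45, *Trim12a* -1.93, *Trim30d* -1.92, *G530011O06Rik* -1.83, *Mid1* -1.80, *Hbb-bs* -1.23, *Rnf141* -1.15, *Iigp1* -0.80 and *Gm15726* -0.50. Of the higher genes, *Gdpd3* had 1.35 there, *Retnla* 1.29, *Pde2a* 0.75, *Hddc3* 0.73, *Il31ra* 0.67 and *Gda* 0.07, whereas *C4b* (-0.40), *Lars2* (-0.43) and *Wfdc17* (-0.74) had the opposite sign. *Dynlt1b* had a log2 ratio of -3.95 in chosen cells and -2.86 in lymphocytes, *Trim12a* of -1.73 and -3.05, *Trim30d* of -2.39 and -1.77, and *Mid1* of -2.14 and -0.92. *Hddc3* had 1.42 and 0.62, and *Gdpd3* 1.04 and 0.93. *Il31ra* had 1.22 and 0.70, *Pde2a* 1.29 and 0.38, and *Lars2* 1.06 and 0.25. Of the higher genes listed here, each was thus under 2-fold in lymphocytes, whereas *Dynlt1b*, *Trim12a* and *Trim30d* were past it in both. *Wfdc17* had 1.06 and 0.18, *Gm15726* -1.84 and -0.04, and *Iigp1* -1.45 and 0.11, each with 7.06 CPM or less in lymphocytes. *Rnf141* had -1.45 and -0.14, at 12.5 and 10.4 CPM in lymphocytes, and *Lyve1* had -4.50 and 0.86. *Retnla*, *C4b*, *Gda* and *G530011O06Rik* were under 1 CPM in lymphocytes of both libraries, so that no ratio can be read there.

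**Figure D5:**
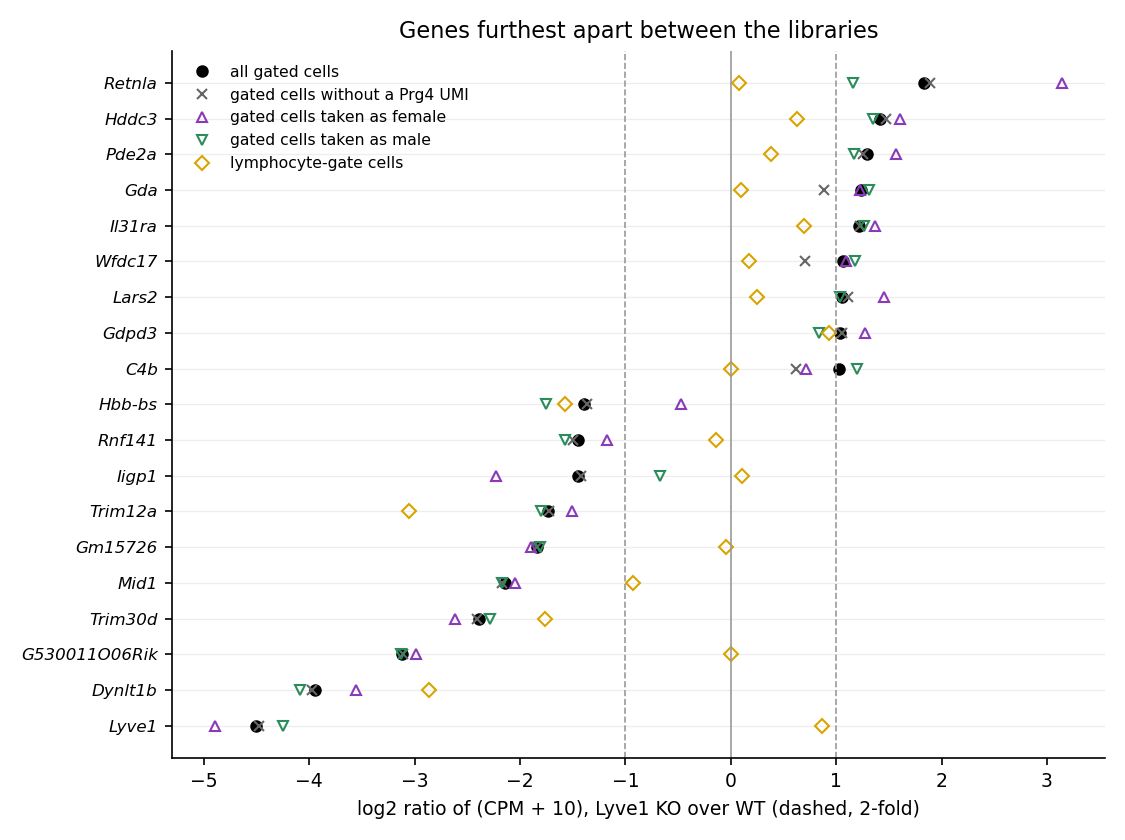
Log2 ratio of *Lyve1* KO over WT (x axis) of 19 named genes (y axis) in all chosen cells, chosen cells without a *Prg4* UMI, female cells, male cells, and lymphocytes of the same libraries. *Lyve1* lies between -4.90 and -4.24 in each set of chosen cells, whereas *Wfdc17* moves from 1.06 to 0.71 without the *Prg4* cells and *Iigp1* and *Retnla* differ between female and male cells.

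Transcripts of other cell types were low in the chosen cells and similar between libraries except for globin, platelet and neutrophil genes. The 18 cardiomyocyte markers, led by *Actc1*, summed to 218 and 209 CPM, against 217 and 207 CPM in *Folr2*-low cells. Fibroblast markers, led by *Gsn*, summed to 128 and 96.7 CPM, blood endothelial markers, led by *Egfl7*, to 37.1 and 31.8 CPM, and mural markers to 8.94 and 8.34 CPM. B cell markers, led by *Ighm*, summed to 169 and 178 CPM against 4920 and 4983 CPM in lymphocytes, and T cell markers to 20.5 and 20.4 CPM. Neutrophil markers summed to 81.1 and 44.0 CPM with *Ly6g* at 0, monocyte markers to 32.8 and 29.6 CPM, dendritic cell markers to 31.8 and 36.5 CPM, mast cell markers to 2.68 and 3.77 CPM and platelet markers, led by *Ppbp*, to 23.7 and 8.02 CPM. The neutrophil genes *S100a8* and *S100a9* were past 2-fold lower in *Lyve1* KO, yet 214 of 246 and 250 of 280 of their WT UMIs came from a single cell.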

How the data were processed

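Live CD45+ cells of 1 WT and 1 *Lyve1* KO pool of 5 hearts were profiled with 10x Genomics GEM-X 5′ chemistry. The values are UMI counts per gene and barcode, deposited by the authors as unnormalized matrices of 32285 genes; the submitters' processing notes name Cell Ranger 8.0.1 and mm10. Hearts of a pool were not separated here. Counts were summed over the chosen cells of each library, scaled to CPM and compared as log2 ratios after adding 10 CPM. Genes with at least 100 UMIs were kept, and genes whose log2 ratio reached 1 or -1 were counted as past 2-fold. Because each genotype is 1 library, no test was run. CPM intervals are exact Poisson, shares exact binomial (Clopper-Pearson) and their differences Newcombe. The deposited counts hold no doublet calls. Scrublet (scanpy 1.11.5) marked 1 and 0 barcodes and therefore did not work, so no doublet was removed, and an alternative left out the 131 and 112 barcodes with the highest scores. Gene positions came from GENCODE M21. Named genes were the 10 highest and 10 lowest *Lyve1* KO over WT ratios with a UMI in at least 10% of chosen cells of a library, the 15 highest and 10 lowest against *Folr2*-low cells, the most abundant and 2-fold members of each list, and the label markers, and a few of these genes are not reported here. The members, lists and limits were chosen with earlier results of these data known. Tested on simulated counts with 4-fold changes, 80.4% of changed genes in the *Lyve1* KO against WT comparison were past 2-fold, and 0 of 9214 unchanged ones. The spread between hearts is unknown with 1 library per genotype, so these shares give no error rate for the genes counted above. The analysis used Python 3.11.15, numpy 2.4.6, scipy 1.17.1 and pandas 2.3.3.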

Additional observations from a re-analysis of the deposited data

How the results depend on the processing

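Of 15 alternatives, 11 gave ratios of named genes, and none of these changed sign. The difference in share of quality barcodes was -4.86 points with at least 10 receptor UMIs, -3.32 in female and -8.90 in male cells, and the difference in share of C1q-positive cells, 1.99 points, was -2.57 with limits of 500 genes and 30% mitochondrial UMIs, -1.40 with at least 3 receptor UMIs per 10000 and -0.84 in male cells. The 15 genes past 2-fold higher in *Lyve1* KO became 43 with 1 CPM added in place of 10, 6 with the mean of per-cell CPM, 27 in male cells and 6 without cells that held a *Prg4* UMI, an alternative chosen after seeing the data. The 19 lower became 52 with 1 CPM added and 10 with at least 500 UMIs, and by the mean of per-cell CPM the split was 6 higher and 17 lower. Against *Folr2*-low cells, the 68 higher became 156 and the 82 lower 184 with 1 CPM added, and the lower 51 with at least 500 UMIs. With the limit set by depth, at least 3 receptor UMIs per 10000, 69 were higher and 72 lower. The *Lyve1* log2 ratio was -4.86 with 1 CPM added, -4.90 in female and -4.24 in male cells. The share of WT cells with a *Lyve1* UMI was 63.6% with at least 10 receptor UMIs, 49.1% thinned to 3000 UMIs, 67.6% without thinning and 64.1% in female cells, and that of *Lyve1* KO cells 7.59% thinned to 3000 UMIs and 37.5% without thinning. Thinning alone changes depth, and the cause of the other differences was not tested. Of 209 values of single named genes, 153 moved by less than their counting interval, 56 moved by more, and 17 of the 209 fell under 2-fold. The order of the genes depends on the CPM added: with 1 CPM, *Dynlt1b* stood at -6.70 and *Hddc3* at 2.36, past *Lyve1* and past *Retnla* (1.86). No paired analysis was possible because each genotype has 1 library, and no library could be left out for the same reason. Counting intervals leave out the spread between hearts and between libraries, which is unknown.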
